A study of Homo sapiens with 8 samples.

Results

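The 10 genes described here encode core proteins of proteoglycans, and they were taken by name from the 58735 genes of the deposited table, 19951 of them protein-coding. They are perlecan (HSPG2) and agrin (AGRN) of basement membranes, the syndecans SDC1, SDC2 and SDC4, the glypicans GPC1, GPC3 and GPC4, and the small leucine-rich proteins decorin (DCN) and biglycan (BGN). All 10 names matched 1 protein-coding row each. The choice uses names and no threshold on values, but it was made with earlier results of these libraries known, so the calls of these genes describe the data and are not independent evidence. RNA sequencing was done on HepaRG, a human hepatic progenitor line with wild-type genotype label grown in flasks (HepaRG plate, 3 libraries), and on M14A, a gene-edited HepaRG derivative whose genotype label reads FoxM1/HNF4A transfected, also grown in flasks (M14A plate, 3 libraries). A further group held the same M14A cells bioprinted in an ink named GP and taken 4 h after printing (M14A printed, 2 libraries). Flask cells were detached and pelleted, whereas printed constructs were frozen and ground before RNA extraction, so printing and the manner of collection cannot be told apart. All libraries come from 1 cell line and its derivative, and nothing in the labels says that replicates were separate cultures, so the spread behind each p-value is that of these samples and may be technical.

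A proteoglycan is a core protein that carries long sulfated sugar chains, heparan sulfate on perlecan, agrin, syndecans and glypicans, and chondroitin or dermatan sulfate on decorin and biglycan. Syndecans span the plasma membrane, glypicans are held on the cell surface by a lipid anchor, perlecan and agrin are secreted into basement membranes, and decorin and biglycan bind collagen in the interstitial matrix. The chains bind growth factors, chemokines, lipoproteins and matrix proteins. In the liver, syndecan-1 takes part in the uptake of remnant lipoproteins by hepatocytes, glypican-3 is an oncofetal protein, and decorin is a product mainly of stellate cells and portal fibroblasts.

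Recovered depth was 15632154 to 19148262 reads per library. Library 1 of M14A plate was far from libraries 2 and 3, with a chi-square per degree of freedom of 65.2 and 78.0 against 4.63 between those libraries, and the printed pair gave 28.2 against 2.84 to 4.37 among HepaRG plate libraries. Reads of mitochondrially encoded genes made up 6.91 to 7.25% of HepaRG plate libraries and 8.21 to 9.72% of M14A plate libraries, against 13.3 and 16.4% after printing, and the part of this in the results below was not tested. HNF4A stood at 5.67 to 6.50 FPKM (the unit of the table, fragments per kilobase of a gene, relative to library depth) in HepaRG plate and 37.9 to 43.1 in M14A plate, against 17.1 and 13.6 after printing. For FOXM1 the levels were 12.9 to 14.9, 8.92 to 13.0, and 10.1 and 10.1 FPKM in the same order. The 7 hepatocyte markers summed to 24.1 to 26.2 FPKM in HepaRG plate, 497 to 607 in flask-grown M14A, and 767 and 787 in printed cells, with transthyretin (TTR) and transferrin (TF) below 0.4 FPKM in every library. Most of the M14A sum was SERPINA1, at 262 to 459 FPKM in plate and 480 and 438 in printed cells. ALB, APOA1 and FGB were higher in both printed libraries than in any flask library. APOB did not follow, at 23.4, 72.7 and 65.1 FPKM in M14A plate and 17.7 and 34.6 after printing.

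The stretch of DNA before the start of transcription is shown for the 2 genes with the largest rises in the edited line for which RefSeq gave a single promoter entry, and for a gene that fell. Each is 250 bases ending at the base before the RefSeq start (GRCh38.p14), 5′ to 3′ on the strand of the gene, with motif matches in capitals. They lie at chr20:45348425-45348674, chr1:21937311-21937560 and chrX:133415490-133415739, each on the minus strand.
SDC4: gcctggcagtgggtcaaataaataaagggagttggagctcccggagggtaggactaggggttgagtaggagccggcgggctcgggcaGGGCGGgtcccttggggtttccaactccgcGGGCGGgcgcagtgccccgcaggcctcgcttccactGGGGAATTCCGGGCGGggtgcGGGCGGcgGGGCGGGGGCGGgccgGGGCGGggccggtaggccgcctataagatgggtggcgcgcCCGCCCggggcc
HSPG2: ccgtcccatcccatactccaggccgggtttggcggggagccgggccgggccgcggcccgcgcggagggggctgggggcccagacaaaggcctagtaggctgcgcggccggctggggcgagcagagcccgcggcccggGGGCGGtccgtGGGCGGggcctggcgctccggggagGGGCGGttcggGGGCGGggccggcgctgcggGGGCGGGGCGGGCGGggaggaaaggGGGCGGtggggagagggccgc
GPC4: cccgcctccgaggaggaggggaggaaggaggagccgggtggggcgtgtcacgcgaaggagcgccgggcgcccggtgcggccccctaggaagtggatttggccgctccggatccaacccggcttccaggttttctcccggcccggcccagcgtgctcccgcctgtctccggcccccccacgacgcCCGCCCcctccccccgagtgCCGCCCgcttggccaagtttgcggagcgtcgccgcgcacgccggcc
The motifs searched on both strands were the GC box GGGCGG, the TATA box TATAAA, the AP-1 motif TGANTCA and the HNF4 motif CAAAGTCCA. The NF-kappaB consensus GGGRNWYYCC was searched likewise, in a form chosen after the data were seen. Here N is any base, R is A or G, W is A or T and Y is C or T, and matches may overlap. SDC4 and HSPG2 each held 8 GC boxes and GPC4 held 2, where 42.6% of 35116 windows of this length in the RefSeq table held at least 1. How many windows hold 8 or 2, or hold any at a like share of G and C, was not counted, so these numbers are not ranked. SDC4 also held 1 NF-kappaB consensus match, starting at base -97 from the start, which 5.21% of windows hold. Because the form was chosen afterwards, this share does not measure how unusual the match is. The TATA box, AP-1 and HNF4 letters, present in 10.7, 6.57 and 0.325% of windows, were in none of the 3 stretches. G and C made up 73.6, 82.8 and 76.0% of the SDC4, HSPG2 and GPC4 stretches. A match describes letters only, and binding was not measured.

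**Figure D1:**
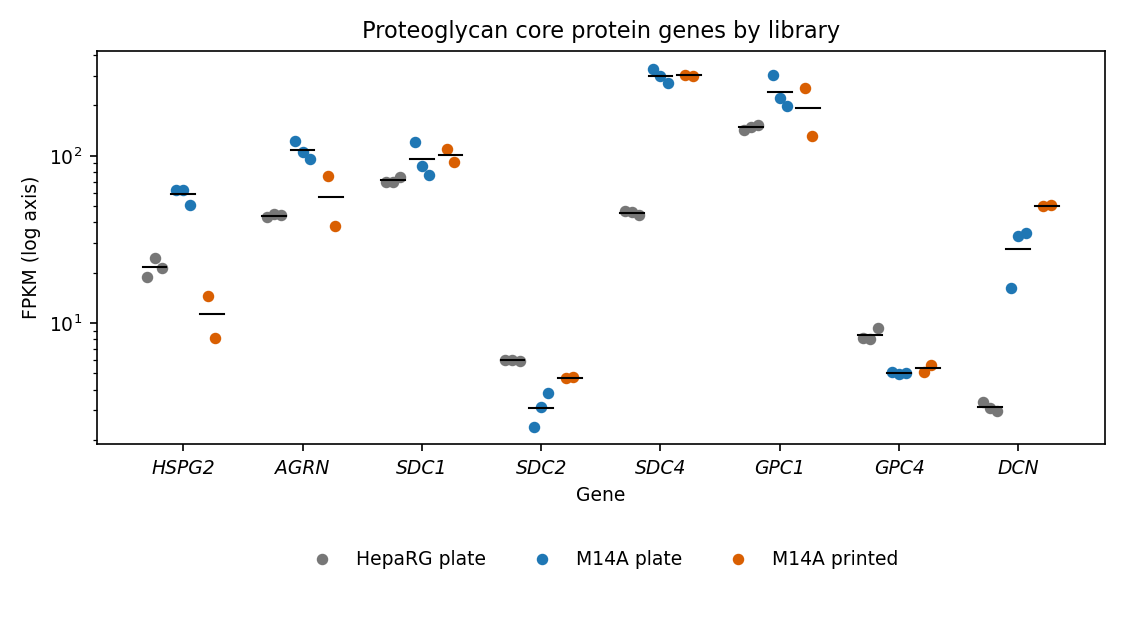
FPKM on a log axis for the 8 proteoglycan genes that reached 1 FPKM in at least 2 libraries, with 1 point per library and a line at each group mean. SDC4 and DCN stand higher in all 5 M14A libraries than in any HepaRG library, and HSPG2 is lowest in the 2 printed libraries.

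Comparing M14A plate with HepaRG plate sets the edited line beside its parent, both grown in flasks. Decorin, syndecan-4, perlecan and agrin RNA were higher in M14A, between 2.45-fold and 8.85-fold by group means, and syndecan-2 and glypican-4 RNA were lower. Of the 10 genes, 8 reached 1 FPKM in at least 2 libraries and were tested. Of these, 4 were called higher and 2 lower at an adjusted p below 0.05 (limma on log2(FPKM + 1), Benjamini-Hochberg over all 14349 genes tested), where 16.1% of all genes were called higher, 14.7% lower and 30.9% in either direction. The libraries of M14A lay wholly above those of HepaRG for 6 of the 8 and wholly below for 2, against 25.7 and 27.4% of all genes tested. The median log2 fold change was 0.97 over the 8 genes and -0.04 over all genes tested. In bulk RNA a change in the number of cells that express a gene and a change in RNA per cell cannot be told apart.

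The 2 basement membrane genes moved alike between the flask-grown lines. Perlecan links laminin and collagen networks and stores growth factors in its chains. HSPG2 (ENSG00000142798, chromosome 1, 21822245 to 21937297 on GRCh38, the build of all positions here) stood at 18.7, 24.4 and 21.4 FPKM in HepaRG plate and at 62.6, 62.4 and 51.1 in M14A plate, so the groups did not overlap. The rise was 2.73-fold by means, with a log2 fold change of 1.41 (SE 0.21, adjusted p = 0.0011). Exons of LDLRAD2 cover 11.7% of its exon bases, and reads there cannot be assigned by gene without strand. Agrin binds dystroglycan and clusters acetylcholine receptors at the neuromuscular junction, and is also found in basement membranes of the biliary tree. AGRN (chromosome 1, 1020123 to 1056118) stood at 42.9, 44.7 and 44.0 FPKM in HepaRG plate and at 122, 105 and 95.5 in M14A plate. The M14A libraries were all above the HepaRG libraries, with a log2 fold change of 1.27 (SE 0.23, adjusted p = 0.0035).

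The 3 syndecans went different ways. Syndecan-4 is the widespread syndecan of focal adhesions, where it acts with integrins and protein kinase C. SDC4 (chromosome 20, 45325288 to 45348424) stood at 46.5, 46.4 and 44.4 FPKM in HepaRG plate and at 332, 302 and 272 in M14A plate. The lowest M14A value was far above the highest HepaRG value, and the log2 fold change was 2.69 (SE 0.12, adjusted p = 1.2e-06). By mean FPKM, SDC4 ranked 701 of 19951 protein-coding genes in HepaRG plate, 66 in flask-grown M14A and 149 in printed cells. Syndecan-1 is the syndecan of epithelia and plasma cells. SDC1 (chromosome 2, 20200797 to 20225433) stood at 69.9, 69.8 and 74.9 FPKM in HepaRG plate and at 122, 87.3 and 76.6 in M14A plate. The groups did not overlap, but the difference did not pass the test, at a log2 fold change of 0.38 (95% interval -0.03 to 0.79, adjusted p = 0.14). With length and GC trends removed it was called (0.24, adjusted p = 0.022). Syndecan-2 is the syndecan of mesenchymal cells, found in liver as well. SDC2 (chromosome 8, 96493351 to 96611780) fell from 6.01, 5.98 and 5.91 FPKM in HepaRG plate to 2.40, 3.16 and 3.80 in M14A plate, with a log2 fold change of -0.77 (SE 0.14, adjusted p = 0.0033). The ratio of SDC4 to SDC1 FPKM within a library was 0.593 to 0.665 in HepaRG plate and 2.73 to 3.55 in M14A plate, so syndecan-1 led in the parent and syndecan-4 in the edited line.

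Among glypicans, GPC1 was the abundant member in every library. Glypican-1 binds fibroblast growth factors and Wnt proteins. GPC1 (chromosome 2, 240435671 to 240468078) stood at 143, 149 and 154 FPKM in HepaRG plate and at 304, 223 and 198 in M14A plate. Every M14A value exceeded every HepaRG value, yet the spread in M14A left the log2 fold change of 0.68 short of a call (95% interval 0.11 to 1.24, adjusted p = 0.070). It was called when either printed library was left out of the fit, with voom on recovered reads, with a replicate block and with length and GC trends removed (adjusted p = 0.026, 0.026, 0.043, 0.043 and 0.0036). GPC4 (chromosome X, 133300103 to 133415490), a glypican expressed widely in development and in fat, fell from 8.14, 8.02 and 9.27 FPKM to 5.08, 4.93 and 4.999, with a log2 fold change of -0.66 (SE 0.11, adjusted p = 0.0023). The 3 M14A values lay within 0.2 FPKM of each other and below all HepaRG values. GPC3, which lies on chromosome X at 133535745 to 133985895, gave 0, 1 and 0 reads in HepaRG plate, 0, 2 and 0 in M14A plate, and 0 and 2 in printed cells. At this depth 3 reads of GPC3 equal 0.0481 to 0.0827 FPKM, so no level of this fetal liver and liver tumour glypican was detectable above that limit, and no comparison was made.

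The small leucine-rich pair split by detection. Decorin binds collagen fibrils, TGF-beta and the EGF and MET receptors. DCN (chromosome 12, 91140484 to 91183123) stood at 3.39, 3.09 and 2.97 FPKM in HepaRG plate and at 16.2, 33.1 and 34.4 in M14A plate. The lowest M14A value, that of library 1, was still well above the parent, and the log2 fold change was 2.73 (SE 0.25, adjusted p = 8.1e-05). Biglycan, its closest relative in sequence and function, was not detectable in the same way: BGN (chromosome X, 153494939 to 153509554) gave 7 reads in all over 8 libraries, with none in either printed library, and 3 reads of it equal 0.0532 to 0.0914 FPKM. Because DCN marks stellate cells and fibroblasts, 10 other markers of those cells were read beside it. Their summed level was 35.1 to 39.5 FPKM in HepaRG plate, 44.3 to 72.1 in flask-grown M14A, and 103 and 83.6 in printed cells, most of it desmin (DES) and, in M14A, alpha smooth muscle actin (ACTA2). ACTA2 stood at 1.26 to 1.68 FPKM in HepaRG plate, 9.91 to 13.8 in flask-grown M14A and 12.6 and 12.2 in printed cells. The collagen I gene COL1A2 was at or below 0.00911 FPKM in every library. PDGFRA, COL3A1 and THY1 were below 0.1 FPKM in every M14A library. The other collagen I gene, COL1A1, was detected throughout but lower in M14A. Parent libraries held 1.80 to 1.98 FPKM of it, flask-grown M14A 0.528 to 1.16, and the printed pair 0.327 and 0.214. LRAT was also lower in all M14A libraries, at 0.356 to 0.979 FPKM beside 1.12 to 1.24 in the parent. By contrast, DES and ACTA2 were higher in every M14A library than in any parent library. PDGFRB stood at 0.0498 to 0.0877 FPKM in M14A plate and at 1.58 to 1.94 in HepaRG plate. Of the 10 markers, 5 reached 1 FPKM in HepaRG plate, 3 in flask-grown M14A and 2 in printed cells, and their part in the DCN difference was not tested. The 6 endothelial and 6 leukocyte markers summed to at most 2.67 and 6.10 FPKM in any library. The 6 biliary and progenitor markers summed to 116 to 121 FPKM in HepaRG plate and 26.3 to 62.0 in M14A plate, with 50.3 and 46.9 after printing. CD24, SPP1, SOX9 and EPCAM were lower in every M14A library than in any HepaRG library. KRT19 stood at 41.2 to 45.4 FPKM in HepaRG plate, 49.0 in M14A plate library 1 and 11.6 in libraries 2 and 3. KRT7 went up, from 0.455 to 0.468 FPKM in HepaRG plate to 1.82 to 2.22 in M14A plate, and 6.66 and 4.82 after printing.

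**Figure D2:**
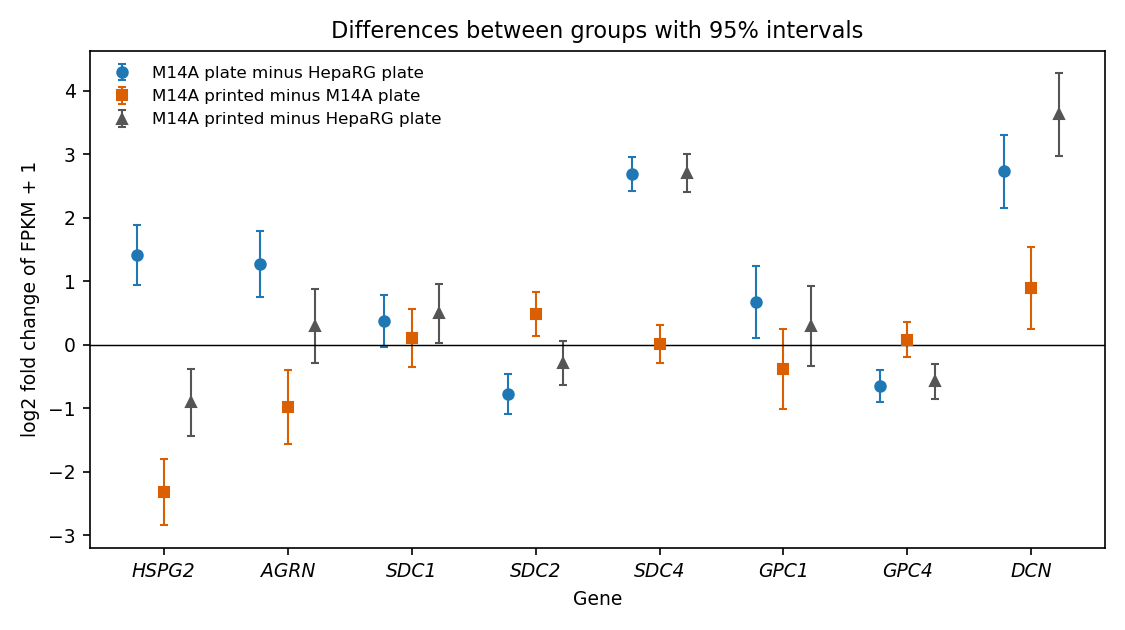
Log2 fold changes of FPKM + 1 with 95% intervals from limma for the 8 tested genes in the 3 comparisons. SDC4 and DCN are far above 0 against HepaRG in plate and in print, while HSPG2 is above 0 between the flask-grown lines and below 0 after printing.

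The comparison of M14A printed with M14A plate shows how the edited cells stood 4 h after printing. Perlecan RNA was 5.18-fold lower by group means and agrin RNA 1.89-fold lower, while decorin and syndecan-2 RNA were 1.80-fold and 1.51-fold higher. Of the 8 genes tested, 2 were called higher and 2 lower, where 17.7% of all genes tested were called higher, 15.5% lower and 33.2% in either direction. The same 4 genes were those whose groups did not overlap, 2 in each direction, against 26.9 and 24.4% of all genes tested. The median log2 fold change was 0.05 over the 8 genes and 0.01 over all genes tested. Both this comparison and the one above use the same M14A plate libraries, so their values stand side by side and are not set against each other.

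HSPG2 stood at 14.5 and 8.18 FPKM in the printed libraries, against 51.1 to 62.6 in M14A plate. Both printed values were below those of every flask library of either line, and the log2 fold change from M14A plate was -2.32 (SE 0.23, adjusted p = 5.8e-04). These levels rest on 3508 and 2401 reads. AGRN stood at 75.7 and 38.3 FPKM in the printed libraries, against 95.5 to 122 in M14A plate. Both printed values were below the plate group but lay far apart, and the log2 fold change was -0.98 (SE 0.26, adjusted p = 0.020). Without printed library 2 it was -0.49 and not called (adjusted p = 0.11), and without printed library 1 it was -1.46. With no filter on low values the AGRN call was lost as well (adjusted p = 0.064). The ratio of AGRN to HSPG2 FPKM was 1.68 to 2.29 in the 6 flask libraries and 5.23 and 4.68 in the printed libraries.

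Fold changes moved with gene length in this comparison. HSPG2 and AGRN have gene lengths of 18104 and 10758 bases in the table. Among tested protein-coding genes of at least 10000 bases, 1291 in number, the median log2 fold change from M14A plate to printed cells was -0.31, with 391 called lower and 49 higher. Among the 1054 genes under 2000 bases the median was 0.59, with 48 lower and 534 higher. HSPG2 and AGRN are also rich in G and C, at 63.0 and 66.0% of their median transcript. Among the 81 genes of at least 10000 bases and at least 60% GC the median was -0.53 and the lower quartile -0.97, with 40 lower and 1 higher, so AGRN lay at that quartile and HSPG2 below it. With each library's trend in length and GC content removed, HSPG2 had a log2 fold change of -1.71 (adjusted p = 9.4e-05) and AGRN of -0.51 (adjusted p = 0.022). DCN, at 12847 bases also a long gene in the table, was higher after printing and stood at 1.13 (adjusted p = 6.5e-04) with the trend removed. These lengths join the exons of all annotated transcripts. The median annotated transcript is 708 bases for HSPG2, 784 for AGRN and 751.5 for DCN. The class of each gene and its value with the trend removed therefore hold for the table length only. Among genes under 2000 bases the upper quartile was 0.98, above the 0.90 of DCN with the trend kept.

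**Figure D3:**
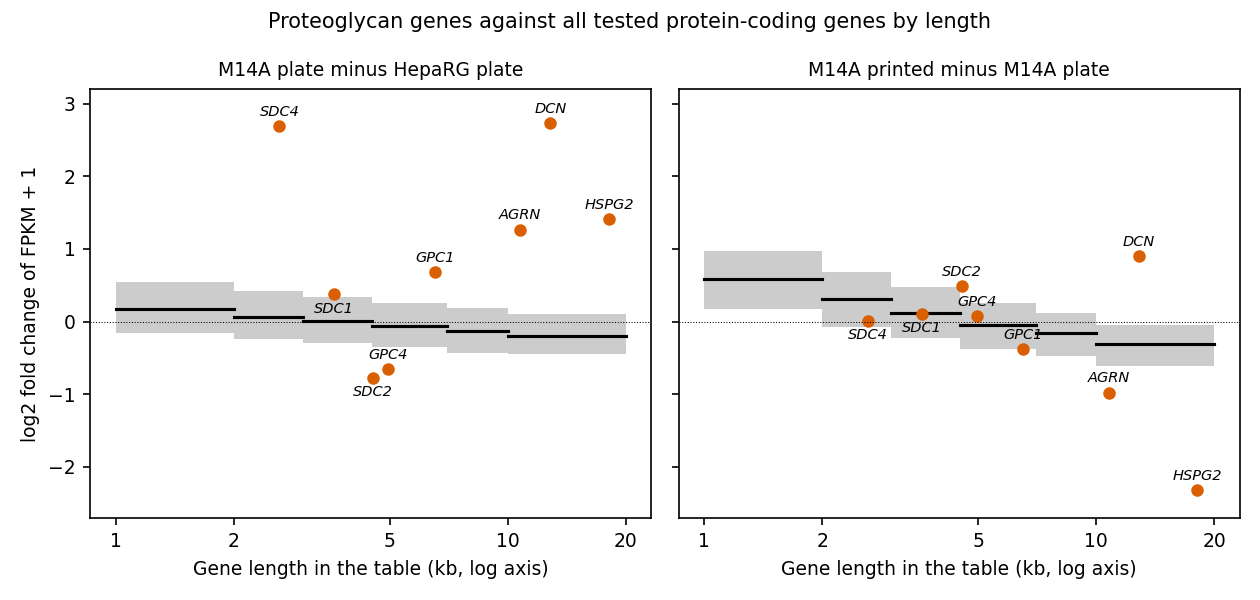
Log2 fold change of FPKM + 1 against gene length on a log axis for the 8 tested proteoglycan genes (points), over the median (line) and quartiles (grey) of tested protein-coding genes in 6 length classes, of which the first starts below the axis and the last is drawn to 20 kb. In printed cells the medians go down from 0.59 to -0.31 with length, and HSPG2 lies below and DCN above the quartiles of their class. Lengths are those of the joined exons of all annotated transcripts.

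DCN stood at 49.8 and 50.5 FPKM in the printed libraries, above the highest M14A plate value of 34.4. Its log2 fold change was 0.90 (SE 0.28, adjusted p = 0.041). SDC2 stood at 4.68 and 4.75 FPKM after printing, between the M14A plate values of 2.40 to 3.80 and the HepaRG plate values of 5.91 to 6.01, with a log2 fold change of 0.49 (SE 0.15, adjusted p = 0.041). For both genes M14A plate library 1 held the lowest level of the plate group. Neither call held when any single HepaRG plate or printed library was left out (adjusted p = 0.065 to 0.14) or with no filter on low values (0.12 and 0.092), and that of SDC2 was also lost without M14A plate library 2 (0.085). Without M14A plate library 1 the log2 fold change of DCN was 0.56, and it was 1.08 without library 3.

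The other 4 tested genes, all of the cell surface, were not called between printed and plate M14A on the deposited scale. SDC4 stood at 305 and 302 FPKM in the printed libraries, inside the M14A plate range of 272 to 332, and its log2 fold change was 0.01 (95% interval -0.29 to 0.32). SDC1 stood at 111 and 92.2 FPKM, inside the plate range of 76.6 to 122, with a log2 fold change of 0.11 (95% interval -0.35 to 0.57). GPC4 stood at 5.08 and 5.62 FPKM, close to the plate values of 4.93 to 5.08, with a log2 fold change of 0.08 (95% interval -0.20 to 0.36). GPC1 stood at 254 and 132 FPKM, the first inside and the second below the plate range of 198 to 304, with a log2 fold change of -0.38 (95% interval -1.01 to 0.25). This GPC1 value was -0.85 without printed library 1 and 0.09 without printed library 2, so its size and sign rest on 1 library. None of these 4 passed the test, which does not show that they were equal. At equal FPKM totals, which shift the median of all genes in this comparison to -0.51, SDC4 stood at -0.75, SDC1 at -0.64, GPC4 at -0.55 and GPC1 at -1.14, and all 4 were called lower. With length and GC trends removed SDC4 was also called lower, at -0.22 (adjusted p = 0.041). At equal FPKM totals HSPG2 stood at -3.02, AGRN at -1.73, DCN at 0.15 and SDC2 at -0.12.

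Against HepaRG plate, printed cells had 2 genes called higher and 2 lower, where 28.1% of all genes tested were called in each direction and 56.2% in either. Groups did not overlap for 3 genes upward and 3 downward, against 38.5 and 41.8% of all genes tested. SDC4 and DCN were the higher ones, with log2 fold changes of 2.70 (SE 0.13, adjusted p = 2.2e-06) and 3.63 (SE 0.28, adjusted p = 2.6e-05). GPC4 and HSPG2 were the lower ones, at -0.58 (SE 0.12, adjusted p = 0.0041) and -0.91 (SE 0.23, adjusted p = 0.0095). For HSPG2 the call was lost without printed library 2 (log2 fold change -0.53, adjusted p = 0.079) and with length and GC trends removed (-0.25, adjusted p = 0.17). At equal FPKM totals, where the median of all genes is -0.77, SDC4 and DCN stood at 1.75 and 2.75 and GPC4 and HSPG2 at -1.40 and -1.80, all 4 still called. The order of group levels from high to low was thus M14A plate, HepaRG plate, printed for HSPG2, and printed, M14A plate, HepaRG plate for DCN. For SDC4 the M14A groups were neighbours that did not differ beyond their spread, and for GPC4 likewise. For AGRN the neighbours were printed cells and HepaRG plate (log2 fold change 0.29, 95% interval -0.29 to 0.87), which did differ by the test without printed library 2 (0.77, adjusted p = 0.016) and with length and GC trends removed (0.80, adjusted p = 0.0015). At equal FPKM totals AGRN was called in the opposite direction (-0.66, adjusted p = 0.033). SDC2 ran from HepaRG plate through printed cells to M14A plate, and the first pair of these did not differ by the test (adjusted p = 0.14) except without M14A plate library 1 (0.014) and with length and GC trends removed (0.027), or at equal FPKM totals (0.0026). SDC1 and GPC1 had no call in any of the 3 comparisons with all libraries in the fit as given. In printed cells against HepaRG plate, GPC1 was called higher without printed library 2 (0.77, adjusted p = 0.039) and with length and GC trends removed (0.58, adjusted p = 0.0072), and lower at equal FPKM totals (-0.66, adjusted p = 0.031). In the same comparison SDC1 stood at 0.49 (adjusted p = 0.065). It was called higher with median-ratio scaling, with voom, without M14A plate library 1, without M14A plate library 3 and with length and GC trends removed (adjusted p = 0.038, 0.034, 0.0035, 0.044 and 0.0077), and lower at equal FPKM totals (-0.46, adjusted p = 0.0062).

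The make-up of the summed FPKM of all 10 genes also differed between groups. Levels of different genes are set side by side here only per length, and the table divides by the joined exons of all annotated transcripts, 20 of them for DCN. The sum was 339 to 356 FPKM in HepaRG plate, 737 to 967 in flask-grown M14A, and 819 and 633 in printed cells. GPC1 gave 42.3 to 43.1% of it in HepaRG plate, 26.9 to 31.5% in flask-grown M14A, and 31.0 and 20.8% in printed cells. SDC4 gave 12.5 to 13.7% in HepaRG plate, 34.3 to 36.9% in flask-grown M14A, and 37.2 and 47.7% in printed cells. By class, the 3 syndecans among the 10 genes gave 34.8 to 36.1% of the sum in HepaRG plate, 47.2 to 47.8% in flask-grown M14A, and 51.3 and 63.0% in printed cells. SDC3 is not among the 10, and its mean was 50.2 FPKM in HepaRG plate, 25.6 in flask-grown M14A and 13.2 in printed cells. The 2 basement membrane genes gave 18.2 to 20.4% in the flask libraries and 11.0 and 7.34% after printing. Among the 10, glypican-1 was the leading core protein gene in the parent and syndecan-4 in all 5 M14A libraries. The share of HSPG2 was 5.53 to 7.61% in the 6 flask libraries and 1.77 and 1.29% after printing, and that of DCN went from 0.832 to 1.00% in HepaRG plate to 6.08 and 7.98% in printed cells.

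**Figure D4:**
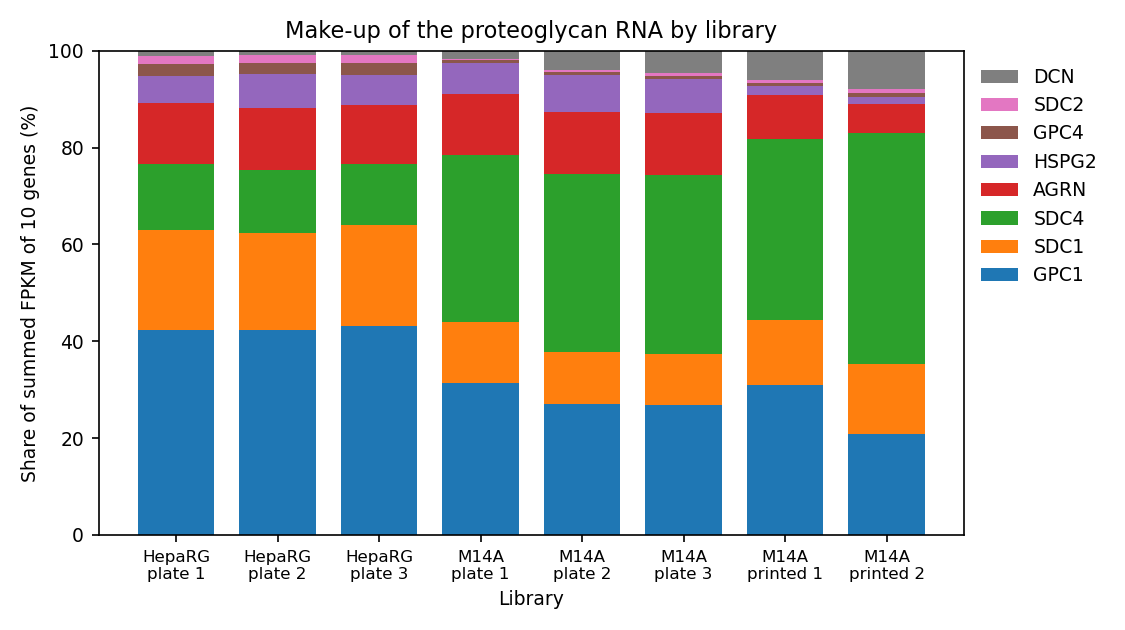
Share of the summed FPKM of the 10 proteoglycan genes in each library, in percent, stacked by gene (GPC3 and BGN are too small to draw). GPC1 holds the widest band in the HepaRG libraries and SDC4 in the M14A libraries, where it reaches 47.7% in printed library 2.

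Genes that build, cut and bind proteoglycans were read from lists chosen by function, 146 genes of which 102 were tested. In M14A plate against HepaRG plate 28 were called higher and 17 lower, beside the 16.1 and 14.7% of all genes given above. The higher count was 18 without HepaRG plate library 1 and 19 without library 3. In these fits 1569 of 14159 and 1632 of 14158 genes tested were called higher. Among the other heparan sulfate core proteins 0 rose and 1 of 4 tested fell: the neural syndecan SDC3, from 50.2 ± 2.96 to 25.6 ± 2.94 FPKM (SD, n = 3 each, as for all flask means here). Among 9 tested small leucine-rich and chondroitin sulfate core proteins 2 rose and 3 fell, with the semaphorin and VEGF receptor NRP1 going from 10.7 ± 0.425 to 3.88 ± 0.368 FPKM and brevican (BCAN) from 0.566 ± 0.0519 to 1.12 ± 0.208. The BCAN call was lost without any one HepaRG plate library (log2 fold change 0.41 to 0.45). BCAN reached 1 FPKM only in M14A plate libraries 1 and 2 (1.36 and 1.04). It thus passed the filter only through the group where it is high, and its call is no more than a description.

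Enzymes of the sugar chains changed in part. No linkage region enzyme of 5 tested was called; the glucuronosyltransferase B3GAT3 stood at 39.1 ± 0.677 and 56.4 ± 11.3 FPKM (adjusted p = 0.079). Of 5 heparan sulfate polymerases 1 rose, EXTL1, from 1.79 ± 0.378 to 3.52 ± 0.443 FPKM. Of 6 tested heparan sulfate modifying enzymes 2 rose and 0 fell. The larger rise was in SULF2, the extracellular sulfatase that takes 6-O-sulfate off heparan sulfate, at 9.22, 8.998 and 9.46 FPKM in HepaRG plate and 46.3, 32.8 and 29.9 in M14A plate, a log2 rise of 1.84 (SE 0.18, adjusted p = 9.5e-05). Of 15 chondroitin and dermatan sulfate enzymes 4 rose and 2 fell. The epimerase DSE, which makes dermatan from chondroitin, went from 1.05 ± 0.122 to 3.79 ± 1.61 FPKM, and the chain-starting transferase CSGALNACT1 from 1.16 ± 0.105 to 0.398 ± 0.131. CSGALNACT1 was at or below 0.497 FPKM in every M14A library. It passed the filter only through the HepaRG plate libraries, where it is high, so its call is no more than a description. Of 9 genes of precursor supply 4 rose and 2 fell. PAPSS2, which makes the sulfate donor PAPS, rose from 6.25 ± 0.0602 to 17.1 ± 1.91 FPKM, whereas the sulfate transporter SLC26A2 fell from 13.2 ± 0.548 to 3.34 ± 1.68. Of 13 chain degradation genes 4 rose and 1 fell, with the hyaluronidase HYAL1 going from 29.6 ± 1.32 to 79.95 ± 32.1 FPKM and the lysosomal sulfatase IDS from 12.1 ± 0.407 to 6.14 ± 0.154.

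Of 4 tested genes of core protein release 1 rose and 1 fell. The metalloproteinase MMP7, which can shed syndecan-1, went from 3.50 ± 0.224 to 9.63 ± 3.79 FPKM, and MMP14 from 117 ± 2.11 to 83.1 ± 15.9, a call lost with any one library left out other than M14A plate library 1. Of 20 tested ligands and receptors 6 rose and 5 fell. The largest rise was in the heparin-binding EGF family member AREG, from 2.41 ± 0.446 to 39.4 ± 10.6 FPKM, a log2 rise of 3.55 (SE 0.19, adjusted p = 3.6e-06), and the largest fall in the receptor FGFR1, from 4.26 ± 0.206 to 0.925 ± 0.308. Among M14A libraries FGFR1 reached 1 FPKM only in plate library 1 (1.28), so it passed the filter through the HepaRG plate libraries. Of 12 basement membrane partners 4 rose and 2 fell, with the laminin chain LAMA4 going from 2.57 ± 0.107 to 11.7 ± 2.71 FPKM and the nidogen NID2 from 6.72 ± 0.252 to 3.86 ± 1.34. The call of NID2 was lost without any one HepaRG plate library or M14A plate library 2 (log2 fold change -0.72, -0.68, -0.70 and -0.63).

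After printing, 6 of the 102 list genes were called higher and 27 lower than in M14A plate, beside the 17.7 and 15.5% of all genes. The counts were 20 and 34 without M14A plate library 1, 22 and 25 with length and GC trends removed, and 3 and 68 at equal FPKM totals. Calls over all genes tested moved as well. In the same order, 4040 and 3849 of 14219, 3432 and 3055 of 14337, and 483 and 6779 of 14928 were higher and lower. Of the 12 basement membrane partners of perlecan and agrin, 0 rose and 8 fell, and their median log2 fold change was -0.69. The count lower was 6 with length and GC trends removed, 7 with no filter on low values and 11 at equal FPKM totals, with 0 higher in each. It was also smaller when either printed library was left out. The largest fall was in LAMA1, from 6.45 ± 2.21 to 2.10 ± 0.418 FPKM (SD, n = 3 plate and n = 2 printed), a log2 fold change of -1.23 (SE 0.23, limma adjusted p = 0.0046). Fibronectin (FN1), nidogen NID1 and the collagen IV chains COL4A1 and COL4A2, named after their values were seen, fell from 181, 24.4, 10.2 and 10.3 to 88.3, 13.8, 5.05 and 5.30 FPKM by means. With length and GC trends removed LAMA1 stood at -0.78 and NDST1, described next, at -0.94, both still called.

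Of the 53 tested genes that build and degrade the chains, 14 were called lower and 0 higher after printing with all libraries. Of all genes tested, 15.5% were called lower and 17.7% higher. The split of the chain genes depended on the setting, as did the number of calls over all genes. Without M14A plate library 1, 11 of the 53 chain genes were called higher, among them B3GAT3, SULF2 and HYAL1, and 19 lower. In that setting 4040 of 14219 genes tested were called higher and 3849 lower, against 2544 and 2226 of 14349 with all libraries. With length and GC trends removed 11 chain genes were higher and 15 lower, beside 3432 and 3055 of 14337 genes tested. Without printed library 2 fewer chain genes were called lower than with all libraries. Of 5 tested linkage region enzymes 2 fell, with the galactosyltransferase B3GALT6 going from 29.03 ± 9.36 to 12.8 ± 5.24 FPKM, a call lost without printed library 2 (log2 fold change -0.73, adjusted p = 0.13). Of 5 polymerases 2 fell, with EXTL3 from 7.39 ± 1.85 to 3.14 ± 0.110 FPKM. Of 6 heparan sulfate modifying enzymes 3 fell, led by the N-deacetylase and N-sulfotransferase NDST1 from 26.0 ± 5.23 to 9.67 ± 0.797 FPKM, a log2 fold change of -1.32 (SE 0.17, adjusted p = 0.0013). SULF2, which was not called, stood at 38.6 and 48.0 FPKM in the printed libraries. Of 15 chondroitin and dermatan sulfate enzymes 6 fell, with the sulfotransferase CHST3 from 10.6 ± 3.41 to 3.44 ± 0.143 FPKM. Of 9 precursor supply genes 1 fell, the sugar nucleotide carrier SLC35D1, from 11.5 ± 1.80 to 7.61 ± 0.762 FPKM, a call lost with any one library left out other than M14A plate library 1. Of 13 chain degradation genes none was called; HYAL1 stood at 79.95 ± 32.1 and 75.8 ± 4.40 FPKM. With no filter on low values the calls of B3GALT6 and SLC35D1 were lost as well (adjusted p = 0.057 and 0.067).

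The 6 list genes that rose in printed cells were MMP7, the ligands HBEGF, midkine (MDK) and pleiotrophin (PTN), the syndecan-binding protein syntenin (SDCBP), and the granule proteoglycan serglycin (SRGN). HBEGF, a heparin-binding ligand of the EGF receptor, stood at 2.09, 2.10 and 2.04 FPKM in M14A plate and at 12.1 and 11.1 in printed cells, a log2 rise of 2.03 (SE 0.13, adjusted p = 3.4e-04). MMP7 stood at 5.41, 10.7 and 12.8 FPKM in M14A plate and at 40.4 and 40.9 after printing, a log2 rise of 2.04 (SE 0.28, adjusted p = 0.0015). Both groups of values were well apart for these 2 genes. MDK, PTN and SDCBP, also named after their values were seen, went by means from 15.3, 4.801 and 33.8 to 39.8, 10.3 and 59.1 FPKM. SRGN rose from 62.7 ± 14.4 to 103 ± 2.99 FPKM, a call lost without either printed library (log2 fold change 0.70 and 0.76). At equal FPKM totals SRGN stood at -0.03, in the opposite direction, and MMP7 and HBEGF at 1.31 and 1.38, both still called. In the other direction, BCAN went from 1.12 ± 0.208 to 0.344 ± 0.0272 FPKM, having passed the filter only through M14A plate libraries 1 and 2. SDC3 went from 25.6 ± 2.94 to 13.2 ± 4.56, a call lost without printed library 2 (log2 fold change -0.60). The lipoprotein and heparan sulfate partner LRP1 fell from 33.3 ± 5.54 to 12.6 ± 2.53 FPKM. Of the 20 ligands and receptors, 4 rose and 3 fell.

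**Figure D5:**
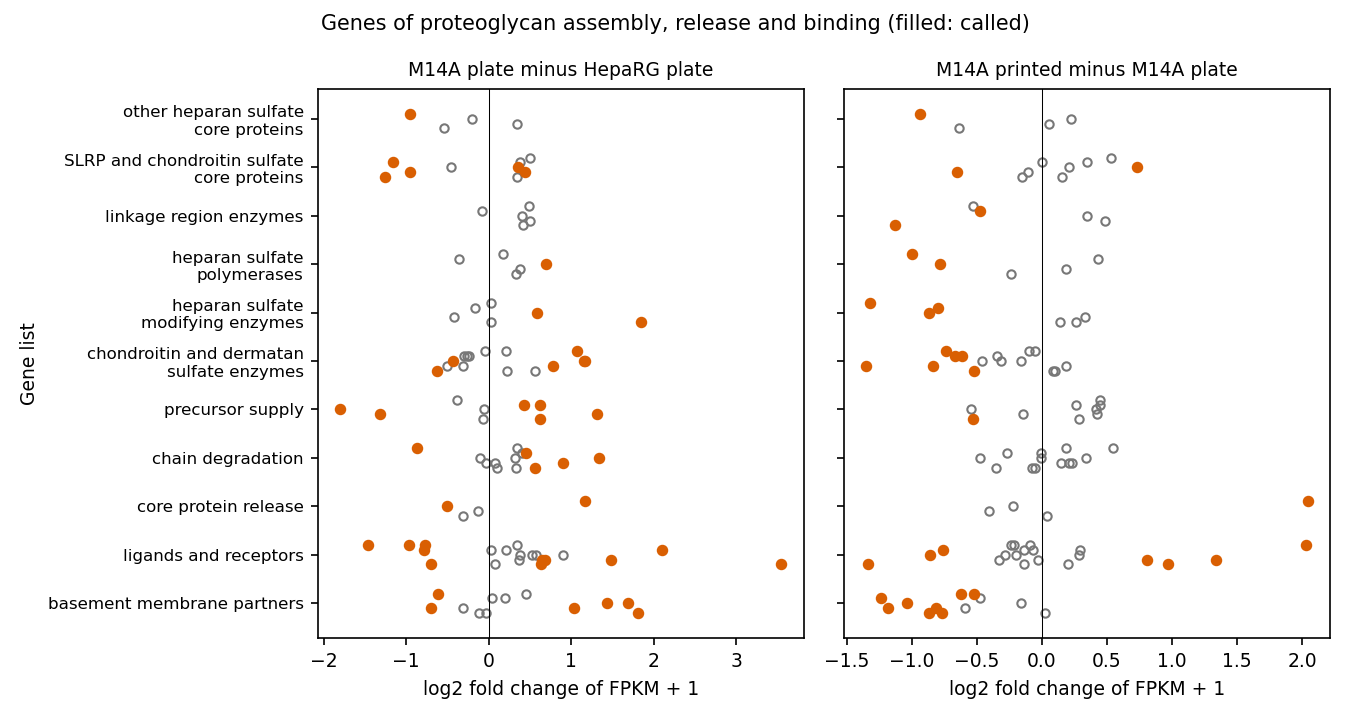
Log2 fold change of FPKM + 1 for each tested gene of the 11 lists, in M14A plate minus HepaRG plate (left) and M14A printed minus M14A plate (right), with called genes filled. Between flask-grown lines called genes lie on both sides of 0, and after printing, in the fit of all libraries, the called genes of chain assembly and basement membrane lie below 0, a split that for chain assembly did not hold without M14A plate library 1.

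For each tested core protein gene, the protein-coding gene with the most similar profile was found among 11298 others. The measure was the root mean square difference of log2(FPKM + 1) over 8 libraries after centring each gene on its own mean, so it reflects the group differences above. The nearest were FGR for SDC4 (0.11), UGT2A3 for DCN (0.13), WDR81 for HSPG2 (0.24), NECTIN1 for AGRN (0.11), CLPTM1 for SDC1 (0.042), GGPS1 for SDC2 (0.077), MFSD12 for GPC1 (0.040) and ABCC3 for GPC4 (0.066). FGR, a SRC family kinase, stood at 0.0877 to 0.179 FPKM in HepaRG plate and at 5.62 to 6.06 in all M14A libraries. UGT2A3, a glucuronosyltransferase with close paralogs, stood at 0 to 0.0347 FPKM in HepaRG plate, 2.84 to 6.37 in flask-grown M14A, and 9.004 and 11.1 in printed cells. Adding 1 before the log shrinks the fold changes of low genes, so likeness by this measure is not likeness in fold change. By group means SDC4 and DCN rose 6.60-fold and 8.85-fold between the flask-grown lines, less steeply than FGR and UGT2A3. Among the 8 genes themselves, SDC2 and GPC4 were nearest to each other (0.22), as were SDC1 and GPC1 (0.26) and SDC4 and DCN (0.53).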

How the data were processed

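Per the labels' protocols, 1 µg of TRIzol RNA entered each NEBNext Ultra library. The submitters' processing notes name HISAT2 2.0.5 and featureCounts 1.5.0-p3, and their strand setting was not stated. FPKM were deposited by the authors, together with gene lengths. Coordinates of all 58735 genes equal those of GENCODE 29 on GRCh38. All value columns matched a sample by name. Reads were recovered from FPKM times gene length, which came out as whole reads (tolerance 0.01) for 99.92 to 99.98% of values above 0. Recovered reads numbered 15632154 to 19148262 per library, and the denominators of the authors were 0.818 to 1.20 times those reads. FPKM totals differed over a wider ratio than these denominators alone give (254141 to 514152), and changes are relative to the bulk of genes. Precision is limited by reads and by 8 libraries.

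Genes with at least 1 FPKM in 2 libraries (14349; 11306 protein-coding) were tested on the log2(FPKM + 1) scale by limma 3.58.1 under R 4.3.3 (eBayes with trend, two-sided, all 8 libraries, 3 group means, 5 residual degrees of freedom), with groups from sample titles. Fold changes on this scale understate those of low genes. Calls were made at an adjusted p below 0.05 (Benjamini-Hochberg), and the fit was tested on simulated data. The 10 genes and the 11 function lists were chosen with earlier results of these data known. Named from each list and in the comparisons of the flask-grown lines and of printed with plate M14A were the called genes with the largest rise and fall, or the most abundant tested gene where none was called. Alternatives are in the closing section; length and GC trends (natural splines, 5 degrees of freedom, median GENCODE 29 transcript GC, 12 tested genes without a value) and the NF-kappaB motif form were chosen after seeing the data. Promoter letters are RefSeq's; 5 of the 10 genes had 1 entry. Replicate libraries differed beyond sampling noise (chi-square per degree of freedom 2.84 to 78.0), so none was counted as a duplicate.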

Additional observations from a re-analysis of the deposited data

How the results depend on the processing

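Between the flask-grown lines the counts of proteoglycan genes stayed within 4 to 5 higher and at 2 lower when 1 library was left out. For printed against plate M14A they were 0 to 2 higher and 1 to 2 lower, and for printed M14A against HepaRG plate 2 to 4 higher and 1 to 3 lower. The counts of all genes ranged over 2788 to 6117, 2495 to 7889 and 5756 to 10343 in the 3 comparisons (4429, 4770 and 8065 with all libraries), lowest without HepaRG plate library 1 in the first and without printed library 1 in the others, and highest without M14A plate library 1. List genes ranged over 18 to 38 higher and 12 to 24 lower between the flask-grown lines, and over 4 to 20 higher and 15 to 34 lower after printing. Where a printed library is left out, the lone one is assumed to vary like the other groups.

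With no filter, 0 proteoglycan genes were higher and 1 lower after printing. With a filter at 5 FPKM, 2341 genes were called between the flask-grown lines and 4661 in printed M14A against HepaRG plate, with 10 list genes lower in the first. At equal FPKM totals printed cells had 0 proteoglycan genes higher and 6 lower than M14A plate, 6 lower than HepaRG plate, 7262 genes called against M14A plate, and 3 list genes higher and 68 lower. The share of higher genes among calls went from 52.3, 53.3 and 50.1% to 36.9, 6.65 and 13.2%, and the median log2 fold changes to -0.22, -0.51 and -0.77. Reversed there were, against M14A plate, SDC1 (-0.64), SDC2 (-0.12), SDC4 (-0.75), GPC4 (-0.55) and SRGN (-0.028), and, against HepaRG plate, AGRN (-0.66), SDC1 (-0.46) and GPC1 (-0.66). With length and GC trends removed, 22 list genes were higher after printing, 5 proteoglycan genes were higher in printed M14A than in HepaRG plate, and SDC4 was lower in printed than in plate M14A (-0.22). HYAL1, not called after printing, ranged over -0.20 to 0.30 with 1 library left out, the highest without M14A plate library 1. Beyond those constructions the cause was not tested.

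With the replicate number as a block, 4419, 4380 and 7680 genes were called, and 5, 2 and 2 proteoglycan genes were higher and 2, 2 and 2 lower; GPC1 between the flask-grown lines was added (log2 fold change 0.68). Deviations of same-numbered libraries correlated at -0.07, 0.08 and -0.16 between the flask groups, so the numbers do not pair those samples, and at 0.49 and 0.36 between the 2 shared numbers of plate and printed M14A. M14A plate library 3 correlated at 0.43 with printed library 2, above that library's own number, and with 2 printed libraries their deviations mirror each other, so these values show no pairing either. Of 384 values of the 8 genes under the alternatives, 339 kept their direction and side of the threshold or were not called either way, 18 lost and 19 gained a call, and 8 reversed; for the named list genes 452 of 486 did so. GPC3 and BGN are below what this depth can show.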
